A study of Mus musculus with 9 samples.

Results

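The genes described here are 10 genes of smooth muscle cells and pericytes: Tagln, Cnn1, Myh11, Smtn, Lmod1, Synpo2, Mylk, Rgs5, Cspg4 and Myocd. They are 10 of the 19938 genes for which the array annotation held a transcript cluster (the array's unit for a gene) assigned to a single symbol, and each of the 10 had 1 such cluster. The cells came from the stromal vascular fraction (SVF), the cells left when adipocytes are removed from digested fat, of subcutaneous adipose tissue of C57BL6/J mice aged 10 weeks, cultured without treatment in minimal medium. The round pool was 6 cells picked at day 14 and read on 1 array, the 4 beating samples were spontaneously contracting colonies picked by hand at day 28 and combined, and the 4 non-beating samples were the remaining cells of the dishes at day 28. Total RNA of all 9 samples was amplified and read on Affymetrix Mouse Gene 1.0 ST arrays, and values are log2 signals. Nothing in the labels ties the samples of a group to separate animals, so p-values measure the spread between these samples, which may be technical. A beating sample pools the hand-picked colonies of several dishes from 1 lot of SVF, and a non-beating sample is a mixture of all other cells in the dish. In such mixtures fewer cells of a type and less RNA per cell cannot be told apart.

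Smooth muscle cells line vessels and hollow organs and contract when myosin light chain kinase phosphorylates the regulatory light chain of smooth muscle myosin. Their contractile genes are largely driven by serum response factor, which binds CArG boxes in promoters, together with its coactivator myocardin. Pericytes are the mural cells that wrap capillaries, and adipose SVF contains them along with vascular smooth muscle. Several of these proteins, transgelin and calponin among them, are also made by myofibroblasts, and smooth muscle genes are transiently active in developing heart and skeletal muscle.

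Of the 10 genes, Smtn alone differed between beating and non-beating samples after adjustment over all 33323 clusters, and it was higher in beating samples. Tagln, Cnn1 and Lmod1 had lower means in beating samples and Synpo2 and Cspg4 higher means, each with an unadjusted p under 0.05 that did not pass the adjustment. The means of Myh11, Mylk, Rgs5 and Myocd differed by less than the spread between samples allows to be called. Thus 1 of 10 genes was called higher, against 2.82% of all clusters, and 0 were called lower, against 3.34%, in the limma fit. The methods' two-sample test gave the same counts. At an unadjusted p under 0.05 in the limma fit, 3 genes were higher (8.89% of all clusters) and 3 lower (12.0%). The samples of both groups did not overlap for 1 gene that was higher (5.98% of all clusters) and for 2 that were lower (8.24%). Without beating replicate 1, which stood apart for several genes below, 1 gene was called higher and 0 lower. The median difference over the 10 genes was -0.077 on the log2 scale, against 0.0073 over all clusters. The plot of each gene on each array shows these values.

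**Figure D1:**
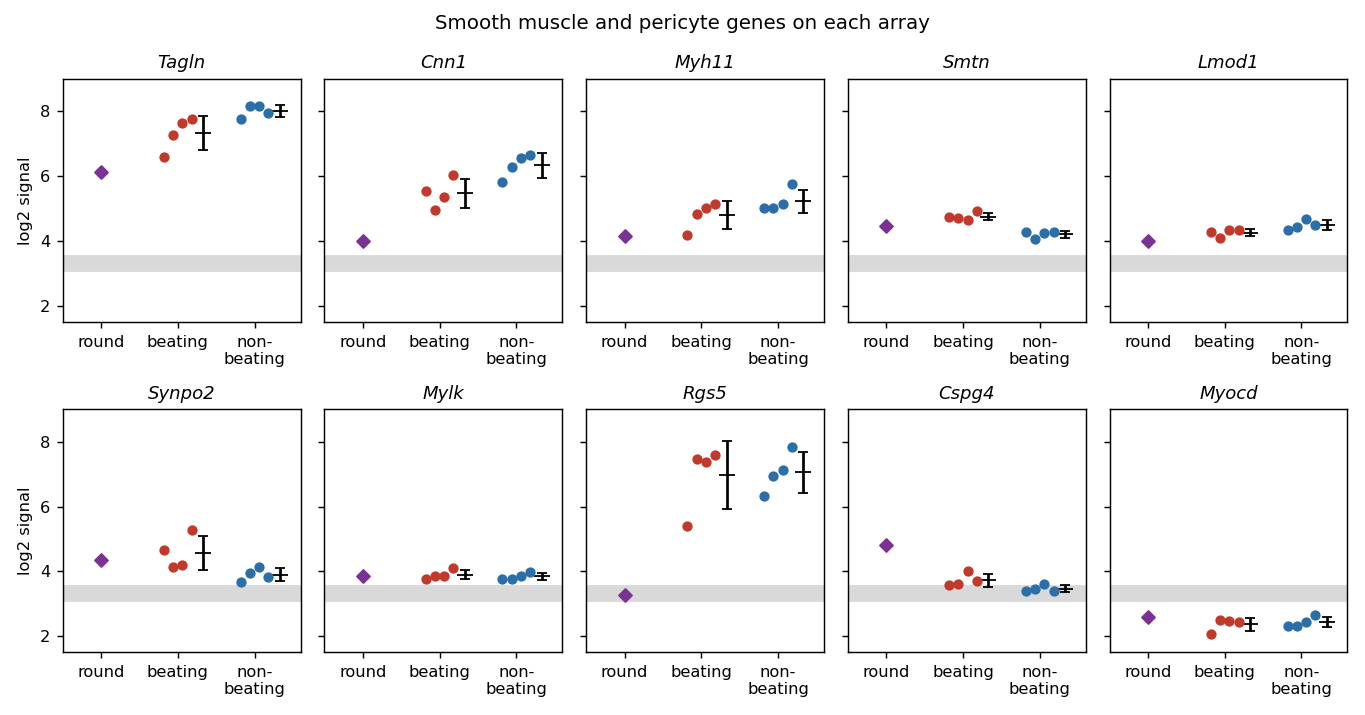
Log2 signal (y axis) of each of the 10 genes on the array of the round pool (diamond), the 4 beating arrays (red) and the 4 non-beating arrays (blue), from replicate 1 on the left of each group to replicate 4; crosses with bars are the mean ± SD of 4 arrays, and the grey band spans the medians of the 9 arrays (3.08 to 3.54). Smtn is the gene whose beating arrays (4.65 to 4.91) all lie above the non-beating arrays (4.06 to 4.28) with an adjusted p under 0.05, and Rgs5 in the round pool (3.26) lies far below the other 8 arrays.

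The group labels were checked first against genes that define muscle and smooth muscle. All 10 striated muscle markers tested, titin (Ttn) and embryonic myosin (Myh3) among them, were called higher in beating samples (2.82% of all clusters). Their mean log2 signal was 9.19 to 9.39 against 3.89 to 4.23 in non-beating samples. Of the smooth muscle markers, Acta2, smooth muscle alpha-actin, was the brightest, at 9.83 to 10.50 in beating samples and 10.25 to 10.57 in non-beating samples. The others were dimmer, though above the array medians in both groups. Over both groups Tagln lay at 6.60 to 8.18, Cnn1 at 4.95 to 6.66 and Myh11 at 4.18 to 5.74. Smtn lay at 4.06 to 4.91 and Lmod1 at 4.09 to 4.68. Myocd, by contrast, lay between 2.08 and 2.65 on the 8 arrays of day 28, below the median signal of each of them (3.08 to 3.17). Myocd was thus among the dimmer clusters in both groups, and the genes are described by name and not as evidence of a cell type.

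Upstream sequence is shown for Smtn, the gene that was called, and for 2 families, leiomodins and myosin light chain kinases, in which the smooth muscle member and its striated muscle relative gave the most different results. Each is the 250 bases before the annotated start, 5′ to 3′ on the gene's strand, from RefSeq on GRCm38.p6. Capitals mark matches on either strand to the MCAT element CATTCC, which TEAD factors bind, or to the E-box CANNTG, which basic helix-loop-helix factors such as MyoD bind. The windows are Smtn (chr11:3539293-3539542, - strand), Lmod1 (chr1:135324563-135324812, + strand), Lmod2 (chr6:24597521-24597770, + strand), Mylk (chr16:34784700-34784949, + strand) and Mylk4 (chr13:32783965-32784214, - strand).
Smtn: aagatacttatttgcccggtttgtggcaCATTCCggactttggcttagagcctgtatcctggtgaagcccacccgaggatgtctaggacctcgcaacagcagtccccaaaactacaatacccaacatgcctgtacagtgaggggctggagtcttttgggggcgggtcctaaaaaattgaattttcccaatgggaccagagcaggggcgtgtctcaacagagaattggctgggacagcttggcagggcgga
Lmod1: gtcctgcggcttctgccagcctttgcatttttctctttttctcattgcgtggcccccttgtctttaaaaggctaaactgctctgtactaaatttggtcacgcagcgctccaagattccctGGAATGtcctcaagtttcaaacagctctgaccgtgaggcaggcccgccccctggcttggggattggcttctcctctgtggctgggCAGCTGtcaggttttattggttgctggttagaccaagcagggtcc
Lmod2: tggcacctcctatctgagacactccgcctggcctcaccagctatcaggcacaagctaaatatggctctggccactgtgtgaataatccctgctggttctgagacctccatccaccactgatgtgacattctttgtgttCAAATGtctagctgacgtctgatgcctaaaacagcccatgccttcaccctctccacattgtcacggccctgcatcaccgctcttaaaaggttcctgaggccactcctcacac
Mylk: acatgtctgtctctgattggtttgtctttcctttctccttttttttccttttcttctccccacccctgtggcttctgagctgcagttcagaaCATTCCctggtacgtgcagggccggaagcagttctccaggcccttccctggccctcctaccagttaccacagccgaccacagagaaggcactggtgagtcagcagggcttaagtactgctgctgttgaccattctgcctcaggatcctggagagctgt
Mylk4: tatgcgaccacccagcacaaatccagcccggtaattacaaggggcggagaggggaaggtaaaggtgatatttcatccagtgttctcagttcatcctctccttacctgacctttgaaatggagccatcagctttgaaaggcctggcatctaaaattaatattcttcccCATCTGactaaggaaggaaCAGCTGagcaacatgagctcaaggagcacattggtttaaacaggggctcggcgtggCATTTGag
An MCAT element lay 222 bases before the start of Smtn, 130 bases before that of Lmod1 and 158 bases before that of Mylk, and Lmod1 also held an E-box 45 bases before its start. Lmod2 held an E-box at 112 bases, and Mylk4 held E-boxes at 83, 64 and 8 bases. No match overlapped another. Of the 10 genes, 7 had a window in the table. Tagln, Myh11 and Myocd had none, so the counts below do not cover them. A CArG box was sought as CCWWWWWWGG, where W is A or T. An MCAT element was found in 3 of the 7 (12.6% of all 32851 windows), an E-box in 3 (66.2%) and a CArG box in 0 (1.47%). The 3 with an MCAT element are the members printed above. Of 17 windows of relatives, 4 held an MCAT element, a window of Mylk3 among them. An E-box was found in 10 of the 17 and a CArG box in 1, against the same shares of all windows. A match describes letters in the window and is not evidence of binding, and a window without one says nothing of the factor.

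Smtn, smoothelin, a protein bound to the actin filaments of contractile smooth muscle, was higher in beating samples. Its log2 signal was 4.73, 4.71, 4.65 and 4.91 in beating samples, against 4.28, 4.06, 4.24 and 4.27 in non-beating samples. The lowest beating sample lay above the highest non-beating sample, and the samples within each group were close to each other. The difference was 0.54 on the log2 scale (95% interval 0.35 to 0.72, 1.45-fold, limma adjusted p = 0.0086). Without any 1 array the adjusted p lay between 0.016 and 0.0317, and under 7 other settings of the fit between 0.00653 and 0.034. The signal was modest in both groups and includes background, so the ratio of signals does not measure a ratio of transcripts. The same holds for every fold given here.

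Tagln, transgelin, an actin cross-linking protein and an early marker of smooth muscle, was well above the array medians in both groups. It read 6.60, 7.27, 7.65 and 7.77 in beating samples, against 7.77, 8.17, 8.18 and 7.94 in non-beating samples. Each beating sample lay below every non-beating sample, although the highest beating and the lowest non-beating value were the same to 2 decimals. The difference of -0.69 (95% interval -1.26 to -0.12) had an unadjusted p of 0.0233 in the limma fit and an adjusted p of 0.157. Beating replicate 1 was the lowest, and without it the difference was -0.45 (adjusted p = 0.16).

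Cnn1, calponin 1, which binds actin and inhibits the myosin ATPase of smooth muscle, gave 5.55, 4.95, 5.36 and 6.04 in beating samples, against 5.82, 6.28, 6.56 and 6.66 in non-beating samples. Only beating replicate 4 reached into the range of the non-beating samples. The difference was -0.86 (95% interval -1.45 to -0.26, adjusted p = 0.101), and the adjusted p lay between 0.0504 and 0.224 when 1 array was left out. Myh11, the heavy chain of smooth muscle myosin and its most specific contractile marker, read 4.18, 4.84, 5.01 and 5.15 in beating samples, against 5.01, 5.01, 5.13 and 5.74 in non-beating samples. Those ranges overlapped, with 1 low beating sample and 1 high non-beating sample. The difference of -0.43 had an interval that included 0 (95% interval -0.99 to 0.13, adjusted p = 0.375), and without beating replicate 1 it was -0.22.

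Lmod1, leiomodin 1, which nucleates actin filaments in smooth muscle, had 4.27, 4.09, 4.33 and 4.33 in beating samples, against 4.34, 4.44, 4.68 and 4.51 in non-beating samples. The groups did not overlap, but the gap between them was smaller than the range within either. The difference was -0.24 (95% interval -0.45 to -0.03, adjusted p = 0.179). Synpo2, also called myopodin, an actin-bundling protein of smooth muscle and of the striated muscle Z-disc, ran the other way. It had 4.66, 4.14, 4.20 and 5.29 in beating samples, against 3.66, 3.96, 4.14 and 3.84 in non-beating samples. Beating replicates 1 and 4 stood above the rest, and the lowest beating value was the same as the highest non-beating value. The difference was 0.67 (95% interval 0.10 to 1.25, adjusted p = 0.172).

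Mylk, the myosin light chain kinase of smooth muscle and non-muscle cells, had a narrow range in both groups. It lay at 3.76 to 4.11 in beating samples and 3.76 to 3.99 in non-beating samples, a difference of 0.05 (95% interval -0.16 to 0.26, adjusted p = 0.801). Its sign turned when the arrays were centred on their medians. Myocd, the coactivator of serum response factor, had a difference of -0.07 (95% interval -0.34 to 0.21, adjusted p = 0.811) at a signal below the array medians, where a difference in transcript would be hard to see.

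Among the pericyte genes, Rgs5, a GTPase-activating protein for G protein alpha subunits and a widely used pericyte marker, was well above the array medians and varied widely. It read 5.41, 7.47, 7.39 and 7.60 in beating samples, against 6.32, 6.95, 7.11 and 7.83 in non-beating samples. Beating replicate 1 was the lowest of the 8, and the other 3 beating samples lay within the non-beating range. The difference was -0.09 (95% interval -1.30 to 1.13, adjusted p = 0.95), so the interval holds sizeable differences of either sign. Without beating replicate 1 the difference was 0.43 (adjusted p = 0.516). Cspg4, the NG2 proteoglycan of pericytes and glial progenitors, lay near the array medians, at 3.57, 3.60, 4.02 and 3.72 in beating samples, against 3.38, 3.46, 3.61 and 3.39 in non-beating samples. Beating replicate 3 was highest and the groups overlapped slightly. Its difference of 0.27 (95% interval 0.02 to 0.52) had an adjusted p of 0.212.

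The order of the replicates was alike for many of the 10 genes, though not for all. Beating replicate 1 was the lowest of its group for 6 of the 10 genes, as it was for 27.1% of all clusters, and beating replicate 4 was the highest or tied for 8 of the 10, against 24.2% of all clusters. Beating replicate 2 was the lowest for Cnn1, Lmod1 and Synpo2 and beating replicate 3 for Smtn. Non-beating replicate 1 was the lowest or tied for 9 of the 10 genes, against 28.3% of all clusters. Endothelial and macrophage markers moved along part of the same order, whereas fibroblast and adipocyte markers did not in non-beating samples. The mean of 10 endothelial markers, Pecam1 and Cdh5 among them, was 3.74, 4.75, 5.27 and 5.51 in beating replicates 1 to 4. In non-beating replicates 1 to 4 it was 5.01, 4.59, 5.03 and 5.61. The mean of 10 macrophage markers, Cd68 and Adgre1 among them, was 3.25, 3.92, 4.18 and 4.98 in beating replicates 1 to 4. It was 4.96, 6.10, 4.97 and 6.44 in non-beating replicates 1 to 4. None of the endothelial or macrophage markers was called in either direction in the limma fit. At an unadjusted p under 0.05, 0 endothelial markers and 8 macrophage markers were lower in beating samples (12.0% of all clusters). Fibroblast markers averaged 6.75, 6.98, 6.92 and 7.23 in beating replicates 1 to 4 and 8.35, 7.92, 8.04 and 7.58 in non-beating replicates 1 to 4. Of these 10 markers, 3 were called lower in beating samples (3.34% of all clusters). Adipocyte markers averaged 4.08, 3.84, 4.05 and 4.21 in beating replicates 1 to 4 and 4.90, 4.58, 4.72 and 4.69 in non-beating replicates 1 to 4. Of 9 measured, 3 were called lower (Lpl, Adipoq and Pparg), against the same 3.34%. Lpl was called without each array in turn, whereas Adipoq and Pparg both lost their call without beating replicate 3, without non-beating replicate 3 and under the methods' two-sample test. Of 8 Schwann cell markers, Ncam1 and Erbb3, which muscle cells also express, were called higher (2.82% of all clusters). The part of these cells in the differences of the 10 genes was not tested.

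Some family relatives of the 10 genes differed far more between the groups than the genes themselves. Among 18 relatives, 4 rose (2.82% of all clusters), 1 fell (3.34%) and 13 were not called, with a median difference of 0.14. The relatives that rose were the leiomodins Lmod2 and Lmod3, which nucleate actin filaments in heart and skeletal muscle, Mylk4, a myosin light chain kinase gene, and Synpo2l, the paralogue of Synpo2 at the Z-disc. Lmod2 read 8.85, 8.35, 8.22 and 8.20 in beating samples, against 2.76, 3.12, 3.16 and 2.96 in non-beating samples, a difference of 5.41 (95% interval 5.04 to 5.77, adjusted p = 9.8e-07). Lmod3 read 8.10, 7.95, 7.52 and 7.67 in beating samples, against 3.27, 2.90, 3.12 and 2.76 in non-beating samples, a difference of 4.80 (adjusted p = 1.7e-06). Lmod1, by contrast, averaged 4.26 ± 0.11 (SD, n = 4) in beating samples and 4.49 ± 0.14 (SD, n = 4) in non-beating samples. Mylk4 read 8.58, 8.51, 8.02 and 8.50 in beating samples, against 2.92, 2.68, 2.23 and 2.64 in non-beating samples, a difference of 5.79 (adjusted p = 1.1e-06). In beating samples all 3 were thus far above the array medians, and in non-beating samples Lmod2 and Lmod3 were near them and Mylk4 below them. Synpo2l rose by 0.92 (3.98 ± 0.34 against 3.06 ± 0.25, SD, n = 4 each, adjusted p = 0.0288) and lost its call without 6 of the 8 arrays in turn. The kinases Mylk2 (0.22, adjusted p = 0.256) and Mylk3 (0.07, adjusted p = 0.778), which belong to skeletal and cardiac muscle, were near or below the array medians and were not called.

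Myh10, a non-muscle myosin heavy chain, was the relative that fell, at 5.85 to 6.34 in beating samples against 6.58 to 6.78 in non-beating samples (difference -0.57, adjusted p = 0.0272); it lost its call without 5 of the 8 arrays in turn. Myh9, the other non-muscle heavy chain, had a difference of -0.47 (adjusted p = 0.485). A dimmer cluster of Myh9 had the other sign, 0.22 (adjusted p = 0.793 in limma). Tagln2 had -0.82 (adjusted p = 0.189), with beating replicate 1 at 4.78 and the other 3 beating samples at 6.10 to 6.33, against 6.61 to 6.75 in non-beating samples. Without that array the difference was -0.46 with an adjusted p of 0.0176. Tagln3, Cnn2, Cnn3, Smtnl1, Smtnl2, Synpo, Rgs2, Rgs4 and Rgs16 were not called, with differences between -0.29 and 0.25. The plot of differences by family shows each relative beside the gene it belongs to.

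**Figure D2:**
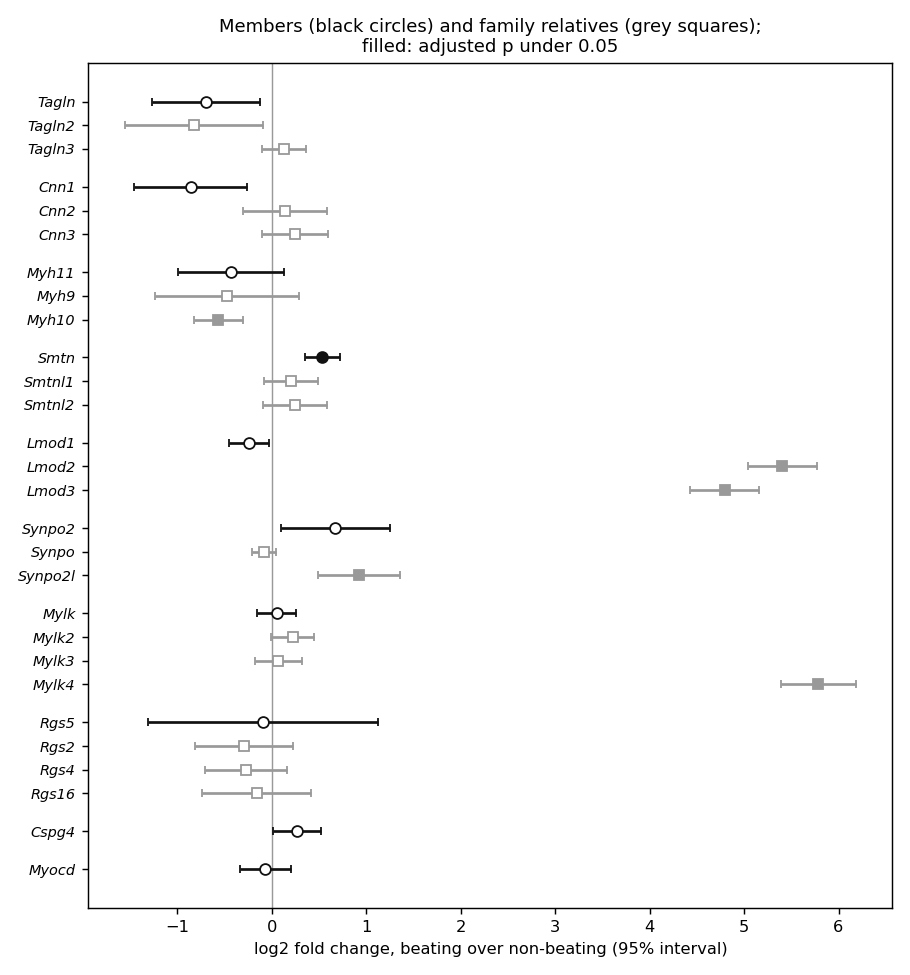
Difference in log2 signal, beating minus non-beating (x axis), with the 95% interval from limma, for the 10 genes (black circles) and 18 relatives (grey squares) grouped by family; filled symbols have an adjusted p under 0.05. Lmod2 (5.41), Lmod3 (4.80) and Mylk4 (5.79) lie far to the right of Lmod1 (-0.24) and Mylk (0.05).

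Whether a relative and its family member differed was compared within each array, as the relative's log2 signal minus the member's, over 18 pairs that were set side by side after their values had been seen. The difference between beating and non-beating samples was larger by 5.64 for Lmod2 than for Lmod1, by 5.04 for Lmod3 than for Lmod1, and by 5.73 for Mylk4 than for Mylk. In each of these pairs the 4 beating arrays separated from the 4 non-beating arrays (exact two-sided permutation test over 70 splits, p = 0.0286, the smallest this design allows, 0.0735 after adjustment over the 18 pairs). For Lmod2, Lmod3 and Mylk4 that separation already followed from the values of the single genes given above, so this p adds nothing to them. The same smallest p was reached for Tagln3 against Tagln (0.82), Cnn2 against Cnn1 (0.999), Cnn3 against Cnn1 (1.11) and Synpo against Synpo2 (-0.75). In these 4 pairs the member differed more than the relative. Tagln differed by -0.69 and Tagln3 by 0.13. The signal of Tagln3 was 2.77 to 3.17 in beating samples and 2.70 to 2.94 in non-beating samples. That is near or below the array medians, where a fall in transcript would be hard to see. Cnn1 differed by -0.86, Cnn2 by 0.14 and Cnn3 by 0.25. Synpo2 differed by 0.67 and Synpo by -0.08. No pair passed the adjustment, which says nothing of the pairs, since at this smallest p most of the 18 would have had to reach it before any could pass. Smtn and its relatives differed by -0.33 for Smtnl1 and -0.29 for Smtnl2, with exact permutation p of 0.0571 and 0.143.

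Other contractile genes of smooth muscle, several of them shared with striated muscle, moved in both directions. Of 23 genes measured, 7 rose (2.82% of all clusters), 2 fell (3.34%) and 14 were not called, and the median difference was -0.024. Des, desmin, the intermediate filament protein of all muscle, rose by 5.36, at 9.17, 8.68, 8.68 and 9.04 in beating samples against 3.19, 3.90, 3.11 and 3.93 in non-beating samples (adjusted p = 6.9e-06). Pdlim3, a Z-disc protein that binds alpha-actinin, rose by 5.31 (adjusted p = 2.9e-05), Pgm5, an adherens junction protein, by 2.08 (adjusted p = 0.000773) and Mustn1, a small nuclear protein of the musculoskeletal system, by 1.94 (adjusted p = 0.00445). Tpm2, beta-tropomyosin, rose by 0.96, at 10.16 ± 0.19 against 9.20 ± 0.10 (SD, n = 4 each, adjusted p = 0.00186).

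Acta2, Actg2, Cald1 and Myl9, the best known smooth muscle genes of this set, were not called. Acta2 differed by -0.20 (95% interval -0.56 to 0.15, adjusted p = 0.513). Actg2, gamma-actin of enteric smooth muscle, lay at 6.12 in beating replicate 1 and 7.03 to 7.10 in the other 3 beating samples, against up to 7.70 in non-beating samples, a difference of -0.62 (adjusted p = 0.209). Cald1, caldesmon, which binds actin and inhibits contraction, read 9.06, 9.58, 10.37 and 10.37 in beating samples, against 10.43, 10.57, 10.69 and 10.86 in non-beating samples. Those groups did not overlap, and the difference was -0.79 (adjusted p = 0.17), or -0.53 without beating replicate 1. Myl9, the regulatory light chain that Mylk phosphorylates, differed by -0.43 (adjusted p = 0.507), or by -0.081 without beating replicate 1. The 2 genes that fell were chosen for mention after their values were seen. Itga8, an integrin of mesenchymal and smooth muscle cells, had 3.19 to 3.76 in beating samples against 4.35 to 4.86 in non-beating samples (difference -1.16, adjusted p = 0.00712), and Myl6, the alkali light chain of smooth muscle and non-muscle myosin, differed by -0.36 (adjusted p = 0.026). Myl6 lost its call without 5 of the 8 arrays in turn.

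**Figure D3:**
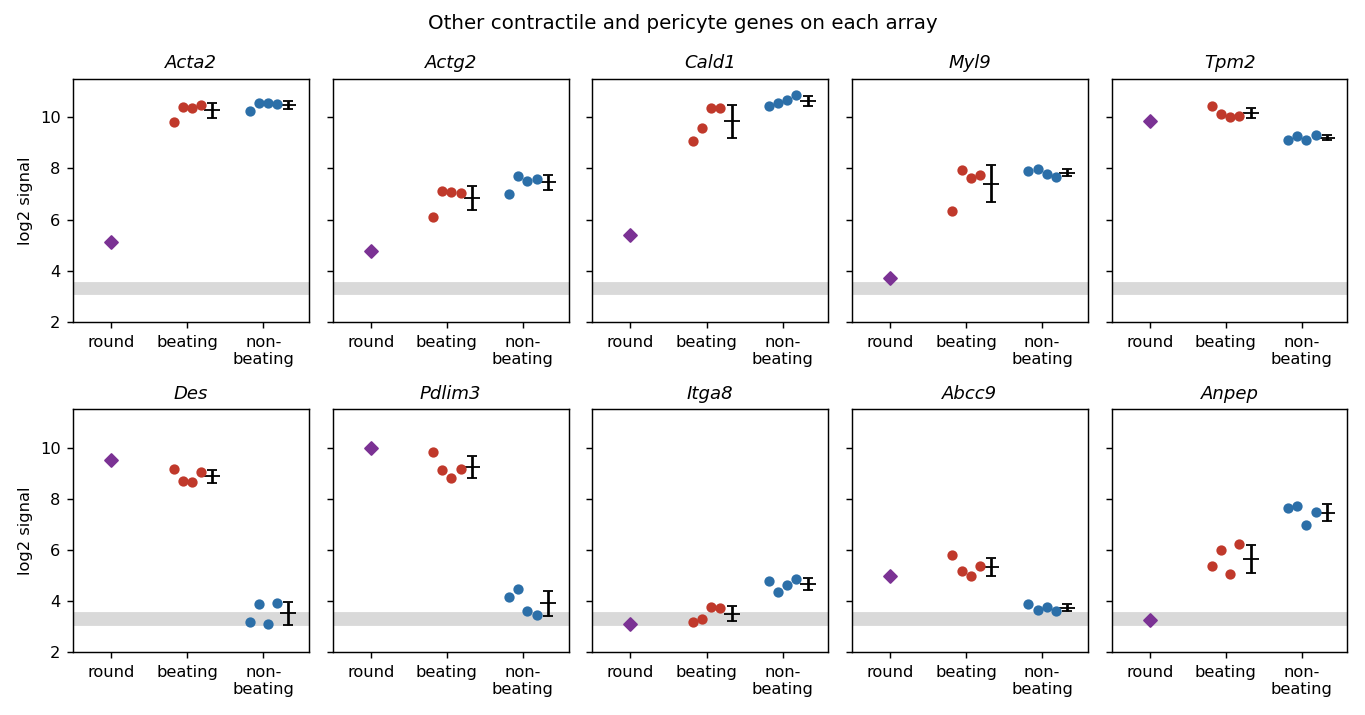
Log2 signal (y axis) of 10 further contractile and pericyte genes on the array of the round pool (diamond), the 4 beating arrays (red) and the 4 non-beating arrays (blue), from replicate 1 on the left of each group to replicate 4; crosses with bars are mean ± SD of 4 arrays and the grey band spans the array medians. Acta2 lies near 10 in both groups of day 28 and at 5.13 in the round pool, whereas Des and Pdlim3 are bright in the round pool (9.52 and 9.98) and in beating samples but not in non-beating samples.

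Signalling genes of smooth muscle contraction and relaxation, 13 measured, included 0 that rose (2.82% of all clusters) and 1 that fell (3.34%), with a median difference of -0.25. The gene that fell was Agtr1a, an angiotensin II receptor, which read 4.14, 4.93, 4.18 and 4.06 in beating samples, against 5.26, 5.21, 5.64 and 5.37 in non-beating samples (difference -1.04, adjusted p = 0.0226). Beating replicate 2 was closest to the non-beating samples, and the call was lost without 6 of the 8 arrays in turn. In the limma fit, 4 of the 13 had an unadjusted p under 0.05 and were lower, against 12.0% of all clusters, and 1 was higher, against 8.89%.

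Other pericyte genes moved in both directions. Of 17 measured, 2 rose (2.82% of all clusters), 2 fell (3.34%) and 13 were not called, with a median difference of -0.0088. Abcc9, the sulfonylurea receptor SUR2, a subunit of potassium channels in pericytes and in heart and skeletal muscle, rose to 5.80, 5.20, 4.98 and 5.37 in beating samples, against 3.91, 3.65, 3.79 and 3.61 in non-beating samples. No beating sample was as low as any non-beating sample, and the difference was 1.60 (95% interval 1.21 to 1.98, adjusted p = 0.00153). Kcnj8, the pore subunit that pairs with it in pericytes, differed by -0.33 (adjusted p = 0.384). Angpt1, angiopoietin 1, a ligand that mural cells send to endothelium, rose by 1.26 (adjusted p = 0.036). Anpep, the aminopeptidase CD13, which fibroblasts and pericytes both carry, fell by 1.80, at 5.36, 5.98, 5.06 and 6.22 in beating samples against 7.66, 7.71, 6.99 and 7.47 in non-beating samples (adjusted p = 0.00947). Ebf2, a transcription factor of adipose progenitors and pericytes, fell by 0.60 (adjusted p = 0.0426). The calls of Angpt1 and Ebf2 were each lost without 7 of the 8 arrays in turn. Pdgfrb, the PDGF receptor of mural cells and fibroblasts (-0.32, adjusted p = 0.571), Mcam, the adhesion molecule CD146 (-0.0088, adjusted p = 0.992), and Notch3, the Notch receptor of mural cells (0.15, adjusted p = 0.438), were not called.

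All 15 regulators that act on or beside myocardin had a lower mean in beating samples, as did 16018 of the 33323 clusters. Of the 15, 2 were called lower, against 3.34% of all clusters. Prrx1, a homeobox factor of mesenchyme that assists serum response factor, fell by 1.06, at 7.94, 7.58, 8.57 and 8.64 in beating samples against 9.48, 9.12, 9.23 and 9.14 in non-beating samples (adjusted p = 0.0406). Mrtfb, a myocardin-related coactivator, fell by 0.47, at 5.38 to 5.80 in beating samples against 5.93 to 6.18 in non-beating samples (adjusted p = 0.0447). The 2 dimmer clusters of Mrtfb were not called (-0.37 and -0.53, adjusted p in limma of 0.548 and 0.12). The call of Prrx1 was lost without 6 and that of Mrtfb without 7 of the 8 arrays in turn. Srf, serum response factor itself, was at 4.83 ± 0.24 in beating samples and 5.06 ± 0.11 in non-beating samples (difference -0.24, adjusted p = 0.33). Mrtfa (-0.19, adjusted p = 0.347) and Klf4, a repressor of smooth muscle genes (-0.12, adjusted p = 0.457), were not called. The median difference of the 15 was -0.19, and at an unadjusted p under 0.05 in the limma fit 3 were lower (12.0% of all clusters) and 0 higher (8.89%).

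The round pool lay below all 8 arrays of day 28 for 5 of the 10 genes, against 24.4% of all clusters, and above all 8 for 1, against 46.4%. It is 1 array of 6 cells with no replicate, so no test was made. Rgs5 stood furthest apart, at 3.26 in the round pool, against a mean of 6.97 in beating samples and 7.05 in non-beating samples. Tagln was at 6.12, Cnn1 at 4.01, Myh11 at 4.15 and Lmod1 at 4.00 in the round pool, each under the lowest of the other arrays. Tagln was thus still well above the median of the round array (3.54), and Rgs5 was below it. Cspg4, at 4.80 in the round pool, was above its means of 3.73 in beating samples and 3.46 in non-beating samples. Smtn (4.46), Synpo2 (4.36), Mylk (3.87) and Myocd (2.58) lay within the range of the other arrays as deposited. Mylk was below all 8 both when each array was centred on its median and after quantile normalisation. Smtn was below all 8 after centring only.

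Contractile genes outside the 10 also lay on both sides of the other arrays in the round pool. Acta2 was at 5.13 in the round pool, 5.15 below the beating mean in log2 signal, and Cald1 (5.39), Myl9 (3.70) and Actg2 (4.76) were likewise below all 8 arrays. Des (9.52), Pdlim3 (9.98) and Lmod3 (8.44) were above all 8, and Lmod2 (8.23) lay within the beating range. These 4 places depended on the scaling: Des, Pdlim3 and Lmod3 were within the range of the other arrays when each array was centred on its median, at 0.23, 0.35 and 0.23 above the beating mean, and Lmod2 was above all 8 after quantile normalisation. Mylk4, at 5.56, lay between beating and non-beating samples. Of the pericyte genes, Pdgfrb (4.62), Mcam (4.91) and Anpep (3.26) were below all 8, Notch3 (5.22) was above all 8, and Abcc9 (4.98) and Kcnj8 (5.03) were within their range.

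The signals of the round array spanned a narrower range, with quartiles of 2.72 and 4.56, against 2.28 to 2.36 and 4.92 to 5.06 on the other 8 arrays, and a gene's place in the round pool went with its level. Among the 8331 clusters with the highest mean over the 8 arrays, 72.7% were below all 8 in the round pool, with a median difference from the non-beating mean of -1.29 (quartiles -2.50 and -0.29). Tagln, Cnn1, Myh11 and Rgs5 belong to them. Among the next 8330 clusters, which hold Smtn, Lmod1, Synpo2, Mylk and Cspg4, 19.2% were below all 8 and 41.9% above, and the median difference was 0.19. The difference of Rgs5 from the non-beating mean (-3.79) lay outside these quartiles, and those of Cnn1 (-2.32), Tagln (-1.89) and Myh11 (-1.08) lay between them. When the 9 arrays were quantile-normalised, Rgs5 was 4.08 below the beating mean and Tagln no longer lay below all 8 (0.12 below the beating mean). Cspg4 was above all 8 arrays as deposited, after centring and after quantile normalisation, as the plot of the round pool under 3 scalings shows.

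**Figure D4:**
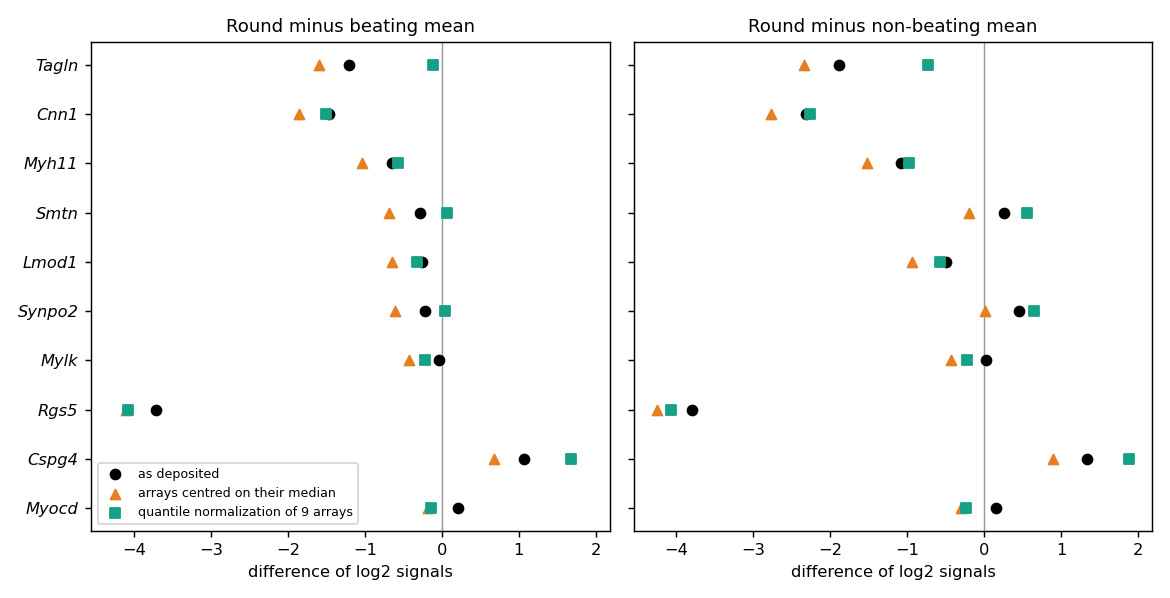
Log2 signal of the round pool minus the mean of the 4 beating arrays (left) and minus the mean of the 4 non-beating arrays (right) for the 10 genes, with values as deposited (black circles), each array centred on its median (orange triangles) and all 9 arrays quantile-normalised (green squares). Rgs5 lies between -4.25 and -3.71 under every scaling, and the sign of Smtn, Mylk and Myocd depends on the scaling in at least 1 panel, as does that of Synpo2 in the left one.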

How the data were processed

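RNA of 4 beating, 4 non-beating and 1 round sample was hybridised to 1-colour Affymetrix Mouse Gene 1.0 ST arrays after amplification. In the study's methods the authors imported the raw intensities into BRB-ArrayTools, put them on a log2 scale and applied normalisation with mean-centring. The step that summarised the deposited table of log2 signals is not given in the sources used here. Its rows keep different means, and the 8 arrays of day 28 had nearly equal quantiles, so the deposited log2 signals were used as they are. No depth applies to arrays, and their number limits the precision.

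Of 33323 transcript clusters, 21789 carried 1 gene symbol, 1621 several and 9913 none. A gene with several clusters of its symbol alone was represented by the one with the highest mean over the 8 arrays. Symbols were updated through the gene number for 21698 clusters. The main test, two-sided, was limma's moderated linear model (version 3.58.1, functions lmFit and eBayes, under R 4.3.3) of the 4 beating against the 4 non-beating arrays over all clusters, with Benjamini-Hochberg adjustment and a threshold of 0.05. Log2 fold changes are beating minus non-beating, so positive values are higher in beating samples. The scripts were tested on simulated data. The round pool entered no fit. Tables were handled with Python 3.11.15 and pandas 2.3.3 and plots drawn with matplotlib 3.10.9.

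The 10 genes and the lists of related genes and cell markers were chosen with earlier results of these data known. Genes named are the 10, all 18 family relatives, a set of known smooth muscle and pericyte genes, and in each list up to 4 called genes with the largest change. Genes named outside this rule are said to be so. Pecam1, Cdh5, Cd68 and Adgre1 were named outside it, as examples of their cell type markers. The lists of contractile, signalling, pericyte, regulator and cell type marker genes are described by counts. Ednra, Adra1a, Irag1, Itpr1 and Rock2 were not analysed here.

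Whether samples of the same replicate number share dishes is not given in the sources used here. The main fit did not use the numbers as pairs, and only the replicate block among the alternatives did. Over all clusters, the deviations of same-numbered arrays from their group means correlated at -0.012, 0.0278, -0.0094 and 0.0203. That does not settle pairing for the 10 genes, whose mean rose with replicate number in both groups. Their mean was 4.48, 4.74, 4.89 and 5.13 in beating samples and 4.66, 4.84, 5.00 and 5.08 in non-beating samples. Alternatives were centring on array medians, quantile normalisation, leaving out dim clusters, a variance trend with robust estimation, array weights, the methods' two-sample test, a replicate block and leaving out each array. Promoter windows were matched by symbol in RefSeq's table for GRCm38.p6, which held 7 of the 10 genes. On 16617 clusters (49.9%), and 4 of the 10 genes, 2 or more of the 9 arrays had identical values.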

Additional observations from a re-analysis of the deposited data

Results flagged for a closer look

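In 9 of 126 groups of 4 arrays (63 genes named by the rule, 2 groups each) 1 array lay so far from the other 3 that its gap exceeded the 95% critical value of Dixon's test. Chance alone flags about 1 group in 20. Beating replicate 1 was the low array for Rgs5 (5.41, with the others at 7.39 to 7.60), Actg2 (6.12, others 7.03 to 7.10) and Tagln2 (4.78, others 6.10 to 6.33). Non-beating replicate 4 was the high array for Myh11 (5.74, others 5.01 to 5.13) and for Mrtfb (6.18, others 5.93 to 5.94), and the low array for Cnn3 (6.99, others 7.37 to 7.40). Beating replicate 3 was low for Mylk4 (8.02, others 8.50 to 8.58), beating replicate 2 was high for Agtr1a (4.93, others 4.06 to 4.18), and non-beating replicate 1 was low for Acta2 (10.25, others 10.54 to 10.57). The reasons were not tested.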

How the results depend on the processing

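The count over the 10 genes, 1 higher (Smtn) and 0 lower, was the same under every alternative run and without each array in turn. No member had a second cluster of its symbol alone, so another cluster could not be tried. Over all clusters, the methods' two-sample test called 491 higher and 375 lower, and the replicate block called 645 lower; without 1 array the calls ranged from 569 to 914 higher and from 438 to 1023 lower, the lowest of both without non-beating replicate 2. Centring called 837 higher and 1617 lower, and leaving out dim clusters 1077 and 1593. Of the family relatives, 0 were lower under the two-sample test and under the replicate block, and 0 to 2 without 1 array. Of the contractile genes, 1 was lower under the two-sample test, and 1 to 2 without 1 array. Of the signalling genes, 2 were lower with dim clusters left out, 0 under the two-sample test and the replicate block, and 0 to 1 without 1 array. Of the pericyte genes, 1 was higher under the two-sample test and the replicate block and 1 to 2 without 1 array; 1 was lower under the variance trend, array weights, the two-sample test and the replicate block, and 1 to 2 without 1 array. Of the regulators, 1 was lower under quantile normalisation, the variance trend and array weights, 0 under the two-sample test and the replicate block, and 0 to 2 without 1 array. The sign of a difference turned for Mylk when arrays were centred (-0.0046) or quantile-normalised (-0.0083), for Mcam under quantile normalisation (0.078) and array weights (0.21) and for Rgs5 under array weights (0.16), none of them called. Without 1 array, the sign turned in the ranges of Mcam (-0.23 to 0.29), Cnn2 (-0.0071 to 0.26), Mylk (-0.017 to 0.10), Mylk3 (-0.036 to 0.12), Myocd (-0.11 to 0.031), Rgs16 (-0.32 to 0.045) and Rgs5 (-0.33 to 0.43). With the replicate block, Actg2 was called (-0.62, adjusted p = 0.039 in limma), while 8 of the 63 named genes lost their call. In the round pool, 7 members lay below all 8 arrays after centring. The causes were not tested.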

Other observations

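Ppp1r12b, a regulatory subunit of the myosin phosphatase that opposes Mylk, was looked at after its values were seen because it has 7 clusters of its symbol alone. All 7 had a positive difference, from 0.23 to 2.02 on the log2 scale, and 3 were called (adjusted p in limma of 0.0224, 0.0104 and 0.0155 for differences of 2.02, 0.82 and 1.92). The cluster with the highest mean, which stands for the gene, was not among the 3 (0.86, adjusted p = 0.106). In the round pool that cluster was at 7.72, against 5.59 ± 0.55 (SD, n = 4) in beating samples and 4.73 ± 0.24 (SD, n = 4) in non-beating samples. Myl6, in contrast, had 6 clusters, all called lower in beating samples, with differences between -0.80 and -0.36 (adjusted p in limma of 0.00651 to 0.026). Why clusters of a gene differ was not tested.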
